A study of Danio rerio with 12 samples.

Results

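The mRNAs of membrane-bound (MB) and high-speed (HS) fractions were compared gene by gene in zebrafish larvae that lack functional *chchd4a*, also named *mia40a*. The 6 mutant libraries, 3 MB and 3 HS, are part of the 12 libraries of the series, and the remaining 6 hold the same fractions of wild-type (WT) larvae. Genes entered when they had more than 50 counts summed over the 6 mutant libraries, which 23854 of 31778 annotated genes did, and the spike-in rows were left out. The mutant larvae were *chchd4a*-/- (*mia40a*-/-), of the AB strain, were taken at 5 days post fertilization (dpf) and came from incrosses of heterozygous carriers, sorted under a fluorescence microscope at 4 dpf. WT larvae were *mia40a*+/+ of the same strain and age and came from a separate incross, of *chchd4a*+/+ siblings. Genotype and cross therefore cannot be told apart where mutant and WT are compared. Both genotypes carried the transgene *Tg(Xla.Eef1a1:mlsEGFP)cms1*, which labels mitochondria with a green fluorescent protein, so no group lacks it. Each library was made from pooled whole larvae, the mutants were recognized by their fluorescence pattern, and the molecular lesion of the allele is not given in the sources used here.

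The fractions were taken one after the other from a supernatant freed of nuclei. The MB fraction was what sedimented at 14000 g in 15 min and holds mitochondria, endoplasmic reticulum (ER) and the ribosomes bound to them. The HS fraction was what sedimented from the remaining supernatant at 100000 g in 60 min and holds free ribosomes and light membranes. The study also detected parts of the ER in it and took it to hold ER-bound ribosomes too. An HS-side ratio therefore does not show that an mRNA was free of membranes. Cycloheximide and magnesium kept ribosomes on their mRNAs, and 2 µg of RNA per library was spiked with standard RNAs before poly(A) capture and paired sequencing of 75 nt reads.

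The protein product of *chchd4a* is the zebrafish counterpart of MIA40, the import receptor and oxidoreductase of the mitochondrial intermembrane space. In yeast and mammals it traps small proteins with paired cysteines, among them the small TIM chaperones and the twin CX9C proteins, and folds them with disulfide bonds that are renewed by the sulfhydryl oxidase Gfer. Nearly all mitochondrial proteins are made on cytosolic ribosomes, either freely in the cytosol or on ribosomes that sit on the outer membrane. Secreted and membrane proteins of the ER route are made on ribosomes that the signal recognition particle brings to the ER. The comparison asked which mRNAs sediment in the MB fraction and which in the HS fraction when the MIA pathway is impaired.

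The 3 mutant MB libraries held 45621399 to 90799590 gene counts and the 3 HS libraries 60807994 to 80520262. Pearson correlations of log2 CPM (counts scaled to library size) across genes were 0.985 to 0.991 among MB libraries and 0.961 to 0.982 among HS libraries. HS replicate 2 stood closest to the MB fraction, with correlations of 0.949 to 0.956 to the 3 MB libraries, and HS replicate 3 farthest, with 0.908 to 0.929. HS replicate 2 was the highest HS library for 77.7% of 791 genes of the membrane protein lists, against 47.3% of all genes, and the lowest for 85.1% of 94 nuclear subunits of respiratory complexes, against 32.0% of all genes. List medians or counts without it are given beside many of the results, and its part in the results beyond that was not tested. Spike-in RNAs took 2.35% ± 0.51 of all counts in MB libraries and 5.45% ± 2.56 in HS libraries (SD, n = 3 each). That difference of -3.10 percentage points had an exact two-sided permutation p of 0.1, the smallest that 3 against 3 libraries allow, and which spike-in mix each library received is not given in the sources used here. All 31 matched cell type and fraction markers were above 0 in every mutant library. The summed level of the 2 matched muscle markers was 5803 to 7678 CPM in MB and 14348 to 55903 CPM in HS, and that of the 3 epidermal markers 3370.0 to 4685 CPM in MB and 14317 to 27960 CPM in HS.

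The mRNA of *chchd4a* itself was present in all 6 mutant libraries. It stood at 7.12, 8.21 and 8.62 CPM in MB and at 18.8, 13 and 29.2 CPM in HS. Every HS library was above every MB library, and the log2 ratio of MB over HS was -1.35 ± 0.29 (SE, edgeR quasi-likelihood adjusted p = 0.0076). Scaled together, all 12 libraries gave means of 7.59 ± 0.80 CPM in mutant MB and 18.6 ± 7.9 CPM in mutant HS, and of 5.10 ± 0.47 CPM in WT MB and 9.42 ± 4.87 CPM in WT HS (SD, n = 3 each). The mutant means were not below the WT means, so the mRNA level does not mark the genotype in these libraries, and the labels could not be checked from it.

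Across all genes of the mutant, lists of cytosolic and nuclear-encoded mitochondrial proteins had medians mostly on the HS side and lists of secreted and membrane proteins medians mostly on the MB side. A gene is called highly enriched when its log2 ratio was at least 1 in size at a Benjamini-Hochberg adjusted p of at most 0.05, and moderately enriched when the ratio was between 0.5 and 1. By edgeR's quasi-likelihood test 2810 genes were highly MB-enriched (11.8% of genes tested) and 3301 highly HS-enriched (13.8%). A further 1250 genes were moderately MB-enriched (5.24%) and 1477 moderately HS-enriched (6.19%). Blocking on the replicate number gave 2432 (10.2%) and 2504 (10.5%) moderately enriched genes, and 3465 (14.5%) and 3434 (14.4%) highly enriched ones. The moderate classes held only 221 to 509 genes without HS replicate 1 or any 1 MB library, and the HS one 2270 without HS replicate 2. Leaving out HS replicate 1 gave 1466 highly MB-enriched genes, and leaving out HS replicate 2 gave 4255. Of the highly enriched genes, 1394 MB-enriched and 2168 HS-enriched ones were called in each of the 6 fits that left out 1 library. The median log2 ratio over all genes was -0.01 and the middle 50% of genes, between the quartiles, lay between -0.65 and 0.62.

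These ratios are relative to the bulk of genes, because the scaling (TMM) sets the typical gene near 0, and the balance of the counts on both sides is set by it. Scaling by library totals moved the median of all genes to 0.81 and gave 9731 highly MB-enriched and 864 highly HS-enriched genes. Scaling by spike-in totals moved it to 1.92 and gave 18108 and 35. All directions below are therefore relative to the typical gene, and an HS-side ratio smaller in size than these shifts is above 0 under those scalings. Unless stated otherwise, each gene named below as enriched kept an adjusted p of at most 0.05 with each of the 6 libraries left out in turn. Every MB library was above every HS library for 25.7% of genes, and every one below for 26.3%. Counts of highly enriched genes in the lists below are to be read against the shares of all genes, 11.8% (MB) and 13.8% (HS).

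**Figure D1:**
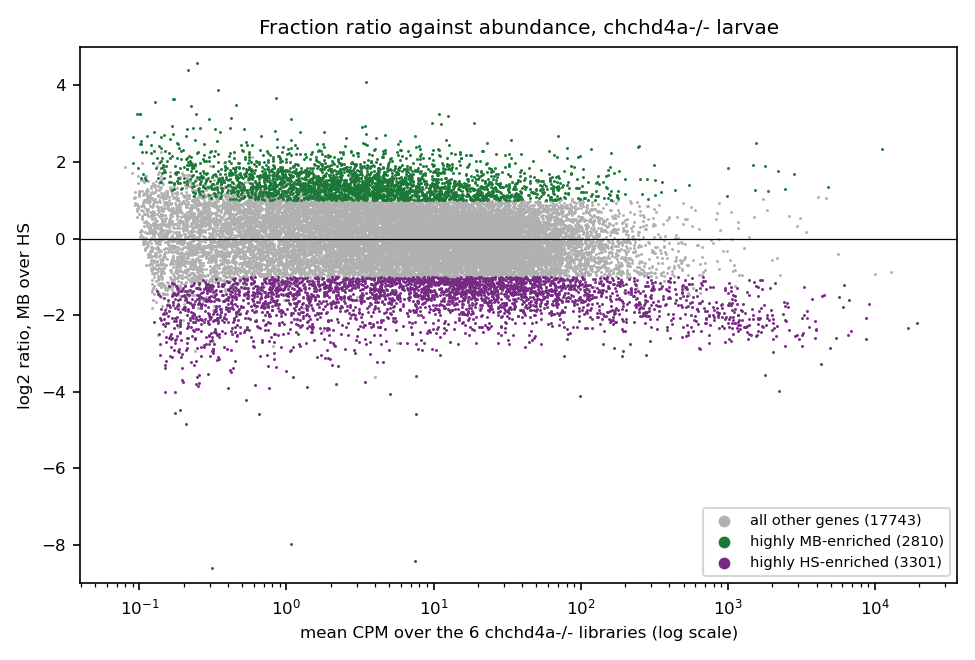
Each point is 1 of the 23854 genes tested, with its mean CPM over the 6 mutant libraries on a log axis and its log2 ratio of MB over HS on the vertical axis; colors mark the 2810 highly MB-enriched and 3301 highly HS-enriched genes. The genes with the highest mean CPM lie mostly below 0, and the mean and the ratio share the same CPM values.

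Genes with the highest mean CPM were mostly HS-enriched. The rank is by the mean CPM of both fractions, so a gene high in only HS or only MB can rank high. Rank and ratio are therefore not independent, and no separate measure of abundance was used. Of the 100 genes with the highest mean CPM, 7 were highly MB-enriched and 79 highly HS-enriched, with a median log2 ratio of -2.0. Of the next 400 genes, 14 were highly MB-enriched and 240 highly HS-enriched. Below rank 10000, where mean CPM was under 9.57, 15.2% of 13854 genes were highly MB-enriched and 11.7% highly HS-enriched. The 100 most counted genes of each library took 26.4 to 32.6% of the counts in MB libraries and 36.9 to 45.2% in HS libraries.

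Among genes with a symbol, over 1000 counts and fractions that did not overlap, the 10 largest log2 ratios ran from 4.08 ± 0.57 (*si:ch1073-13h15.3*) to 2.70 ± 0.33 (*abcg5*). *lct*, which encodes the brush border enzyme lactase in mammals, stood at 13.5, 19.1 and 26.1 CPM in MB and at 1.74, 2.90 and 1.48 CPM in HS. Its log2 ratio was 3.26 ± 0.34 (SE, adjusted p = 0.0011). The nucleoside transporter gene *slc28a1* had 18.5, 15.8 and 25.9 CPM in MB and 2.81, 2.95 and 1.85 CPM in HS, a log2 ratio of 2.98 ± 0.28. The phosphate exporter gene *xpr1a* reached 2.94 ± 0.37, and *abcg5*, a subunit of a sterol exporter, 2.70 ± 0.33. The remaining 6 of the 10 (*si:ch1073-13h15.3*, ENSDARG00000112287 under the symbol *zgc:66156*, *CABZ01088484.1*, *si:ch73-61d6.3*, *CABZ01079179.1* and *CR626907.1*) have no role that could be given here. For *CR626907.1* MB replicate 2 was far above the others, at 12.5 CPM against 2.57 and 3.02, and its adjusted p rose to 0.077 with 1 library left out (HS replicate 1 or MB replicate 2).

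By the same criteria, the 10 lowest ratios included those of keratin and muscle genes. *cyt1l*, a type I keratin gene of the larval skin, stood at 262, 173 and 357 CPM in MB and at 2425, 3659 and 6462 CPM in HS, a log2 ratio of -3.98 ± 0.46 (adjusted p = 0.0012). Its relative *cyt1* had a log2 ratio of -3.27 ± 0.38. *ak1*, the adenylate kinase gene of muscle cytosol, stood at 323, 198 and 314 CPM in MB and 2731, 4041 and 3083 CPM in HS, a log2 ratio of -3.56 ± 0.33. The lowest ratio of all, -8.40 ± 1.95, belonged to ENSDARG00000076126, a row under the actin symbol *actc1a*. It rested on HS replicate 3 at 43.5 CPM, against 0.902 and 0.281 CPM in the other HS libraries, and the ratio was -3.75 without that library. Its adjusted p of 0.011 was 0.052 without MB replicate 2. The other 6 (*si:ch211-213i16.3*, *si:dkey-7c18.24*, *si:ch211-101l18.8*, *si:dkey-53i3.1*, *si:ch73-14h10.4* and *si:ch211-268b13.3*) had log2 ratios of -4.57 to -3.22 and are not annotated further in the tables used.

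**Figure D2:**
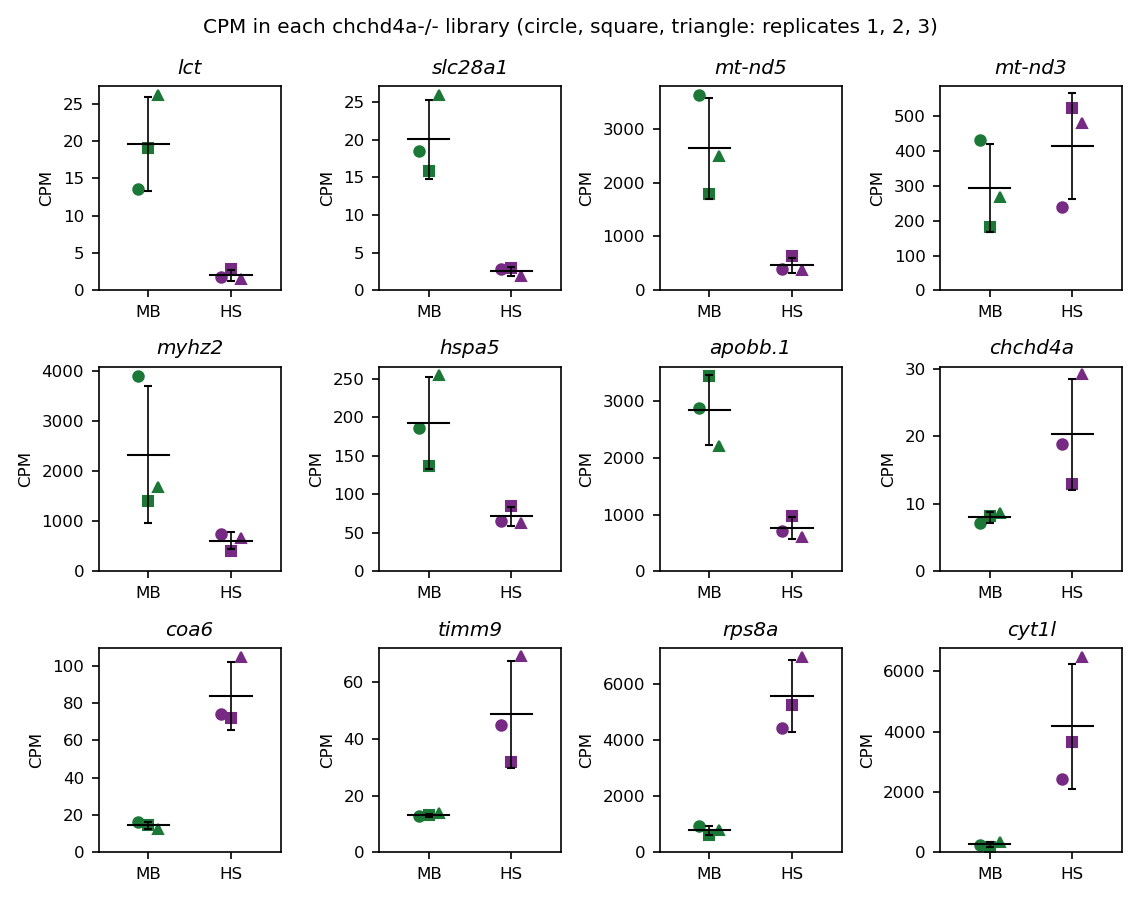
CPM of 12 genes in each mutant library, MB left of HS, with the mean as a bar and the SD as whiskers (n = 3 each); axes start at 0. MB and HS points do not overlap for any panel but *mt-nd3*, where MB spans 182 to 433 CPM and HS 240.0 to 523 CPM.

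Of 82 tested mRNAs of cytosolic ribosomal proteins, 81 were highly HS-enriched and none was enriched in MB, with a list median of -2.14 (-2.16 without HS replicate 2), where 13.8% of all genes were highly HS-enriched. *rpsa*, the most counted, stood at 1799, 1133 and 1414 CPM in MB and 5650.2, 7314 and 6288 CPM in HS, a log2 ratio of -2.15 ± 0.31. *rps8a* had the lowest ratio, -2.82 ± 0.32, with 949, 632 and 782 CPM in MB and 4441, 5245 and 6952 CPM in HS. Its scarce paralog *rps8b*, at 4.88 to 7.26 CPM in MB and 4.27 to 7.54 CPM in HS, was the only member not called, with -0.03 ± 0.28. Within MB, replicate 1 was the highest library for 81 of the 82.

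Elongation factors gave 7 highly HS-enriched mRNAs of 10 (median -1.91). *eef1a1l1*, whose product carries aminoacyl-tRNA to the ribosome, was the gene with the most counts of the list, at 8006, 5579 and 7117 CPM in MB and 25223, 40781 and 29216 CPM in HS, a log2 ratio of -2.20 ± 0.37. *eef1g* had -2.62 ± 0.32. The highest of the list, ENSDARG00000039502, a row under *EEF1A1*, overlapped between fractions and was not called, with -0.01 ± 0.24. Among 56 initiation factor mRNAs 23 were highly HS-enriched and 1 highly MB-enriched. *eif3f*, a subunit of the scaffold that recruits the small ribosomal subunit, had -2.09 ± 0.24 and *eif5a* -1.69 ± 0.28. The exception, *eif3bb*, had 0.858, 1.33 and 0.816 CPM in MB and 0.205, 0.421 and 0.105 CPM in HS, a log2 ratio of 2.04 ± 0.48, with an adjusted p of 0.051 without HS replicate 1. The CCT chaperonin, which folds actin and tubulin, had 6 of 9 highly HS-enriched, from *CCT2* at -1.58 ± 0.25 to *cct2*, a separate row, at -0.44 ± 0.39, which was not called. The proteasome was close to the typical gene, with 2 of 45 highly HS-enriched and a median of -0.47, with 6 highly HS-enriched without HS replicate 2 and 1 without HS replicate 3. Of its members *psmd13* was lowest, with -1.21 ± 0.22. The most counted, *psmd1*, was also the highest and was moderately MB-enriched, with 0.66 ± 0.21. It lost the call without HS replicate 1, HS replicate 3, MB replicate 1 or MB replicate 3 (adjusted p up to 0.10).

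**Figure D3:**
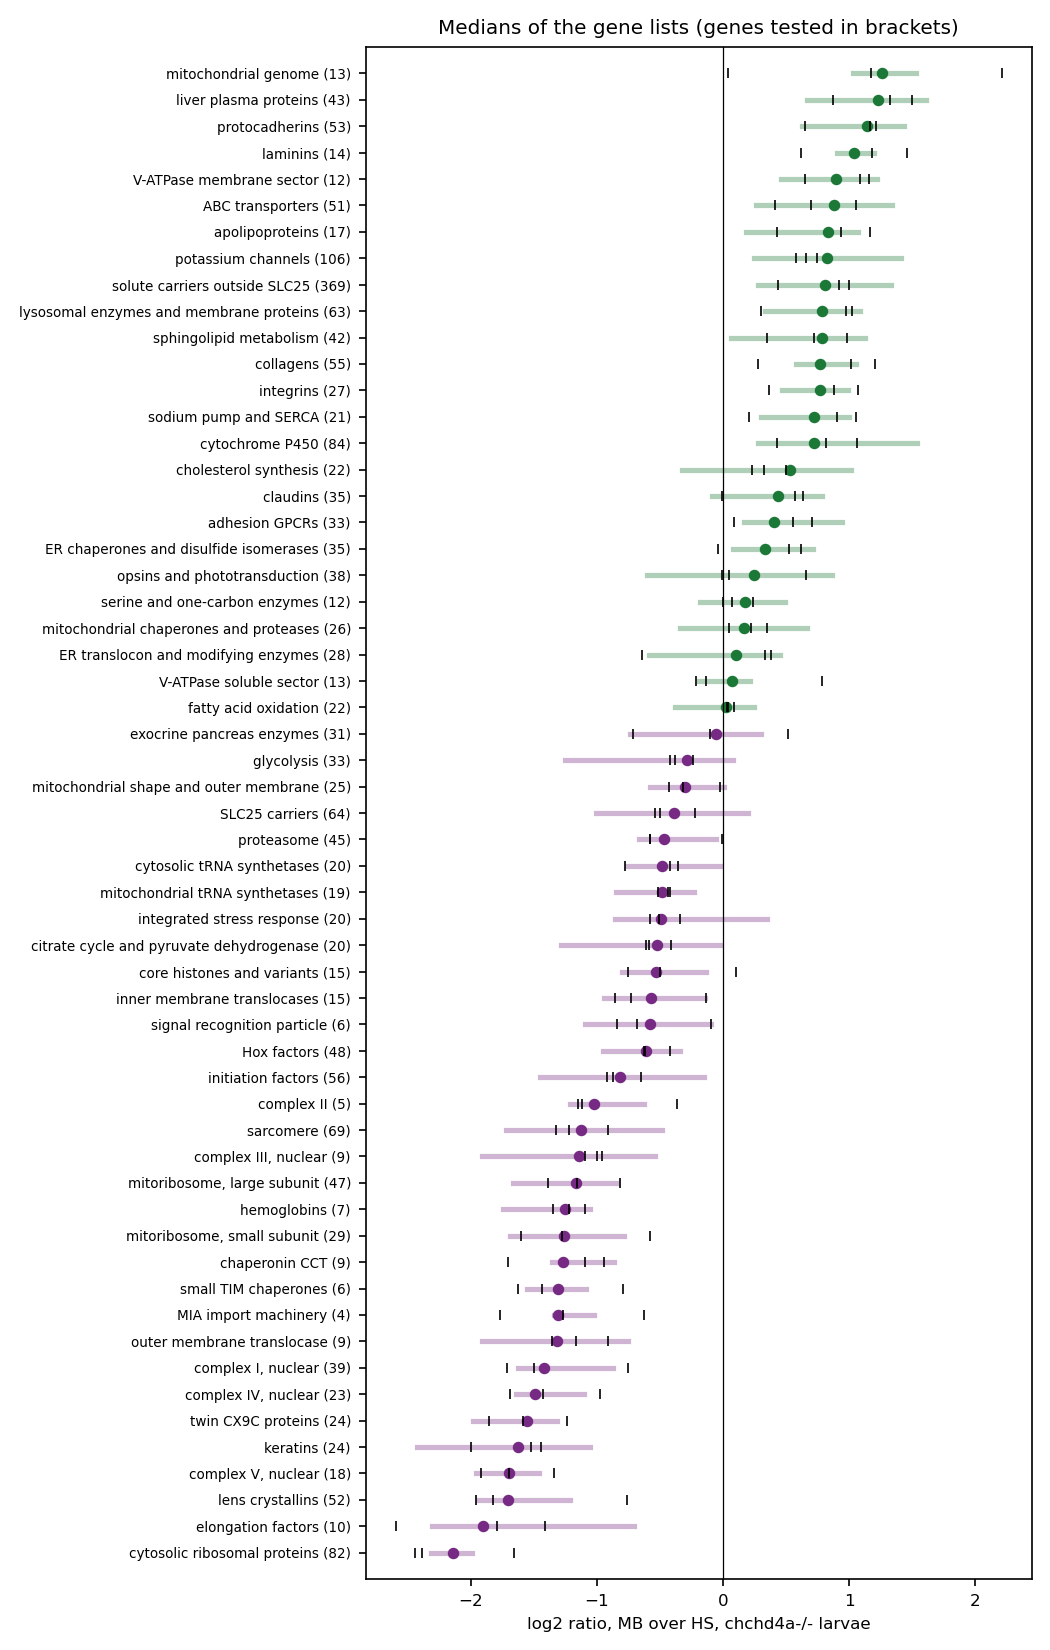
Medians of the log2 ratio (points) and quartiles (bars) for the 57 gene lists, with the number of genes tested in brackets; black ticks are the medians of MB over HS within each replicate number. Cytosolic ribosomal proteins lie lowest, at -2.14, and the mitochondrial genome highest, at 1.26 with ticks furthest apart.

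The mRNAs of nuclear-encoded mitochondrial proteins were mostly HS-enriched in the mutant. The lists used for them take in 12 serine and one-carbon enzymes, of which some act in the cytosol. Over 409 tested genes of 19 lists, 178 were highly HS-enriched and 12 highly MB-enriched (5 on the MB side without HS replicate 1, 18 without HS replicate 2), and the median was -0.82 (-0.92 without HS replicate 2), against -0.01 for all genes. In WT larvae the same genes had a median of -0.49, with 4 highly MB-enriched and 96 highly HS-enriched, where 9.03% and 10.8% of 23733 WT genes were. The difference between genotypes, tested gene by gene as an interaction in the 12 libraries, was called by edgeR for none of them. With the replicate block it was called for 4 further to MB and 0 further to HS in the mutant, against 2.95% and 0.448% of all genes. Of the 94 nuclear subunits of complexes I to V, which carry electrons to oxygen and make ATP, 67 were highly HS-enriched in the mutant and none highly MB-enriched, with a median of -1.46 (-1.65 without HS replicate 2).

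Complex V, the ATP synthase, was the most uniform of them, with 16 of 18 highly HS-enriched and a median of -1.70. Its small epsilon subunit gene *atp5f1e* stood at 47.9, 41.7 and 46.1 CPM in MB and 221, 189 and 312 CPM in HS, a log2 ratio of -2.41 ± 0.25. The large catalytic subunit gene *atp5f1b* differed less, with 864, 741 and 888 CPM in MB and 1297, 1419 and 945 CPM in HS, and its ratio of -0.55 ± 0.26 was not called (adjusted p = 0.12). *atp5fa1*, the alpha subunit and the most counted, had -0.82 ± 0.26 and an adjusted p of 0.036, which was 0.062 with the replicate block and up to 0.13 with 1 library left out (HS replicate 1 or any MB library).

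Complex I had 26 of 39 highly HS-enriched (median -1.42). *ndufa2*, an accessory subunit, stood at 25.8, 23 and 25.4 CPM in MB and 112, 76.1 and 225 CPM in HS, a log2 ratio of -2.48 ± 0.37. *ndufv1*, the NADH-binding subunit with the most counts, overlapped between fractions, at 216 to 236 CPM in MB and 224 to 285 CPM in HS. Complex IV had 17 of 23 highly HS-enriched, with *cox7c* at -2.17 ± 0.39 and *cox8a* at -1.19 ± 0.28. Complex III had 5 of 9, led by *uqcrq* at -2.02 ± 0.27, and *uqcrb*, its most counted member, had -1.80 ± 0.32. The core subunit *uqcrc1* went the other way, with 109.7, 106 and 112 CPM in MB against 72.9, 58.6 and 59.4 CPM in HS, a log2 ratio of 0.78 ± 0.19 (adjusted p = 0.014). It was the only nuclear respiratory subunit called on the MB side, but the blocked fit also called ENSDARG00000113254, a row under *COX5B* (adjusted p = 0.026, against 0.15 without the block). Of the 5 complex II rows, the flavoprotein gene *sdha* had 0.46 ± 0.20 and was not called. The membrane anchor *sdhc* had -1.22 ± 0.30, with an adjusted p of up to 0.076 without MB replicate 1 or 2. The 2 rows under *SDHD* had -1.22 ± 0.32 and -1.02 ± 0.32, and the iron-sulfur subunit *sdhb* -0.62 ± 0.22, and each of these 3 lost the call without HS replicate 1, MB replicate 1 or MB replicate 2 (adjusted p up to 0.19), 2 of them also without HS replicate 3 or MB replicate 3. For *sdhb* the blocked fit gave 0.06. No complex II row was highly HS-enriched without HS replicate 3.

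Of 76 mitochondrial ribosomal proteins tested, 47 were highly HS-enriched and none was enriched in MB, with a median of -1.17 (-1.38 without HS replicate 2). *mrpl18* stood at 15.6, 15.2 and 16.1 CPM in MB and 58.4, 49.8 and 85.0 CPM in HS, a log2 ratio of -2.04 ± 0.23. *mrps18c* had -2.01 ± 0.26. *mrpl2* and *mrps36*, the most counted rows of their lists, had -1.45 ± 0.20 and -1.96 ± 0.21. *mrpl39* (-0.27 ± 0.19) and *mrps30* (-0.09 ± 0.24) overlapped between the fractions and were the closest to 0 of each subunit. HS replicate 3 was the highest HS library for 70 of the 76 and replicate 2 the lowest for 66.

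**Figure D4:**
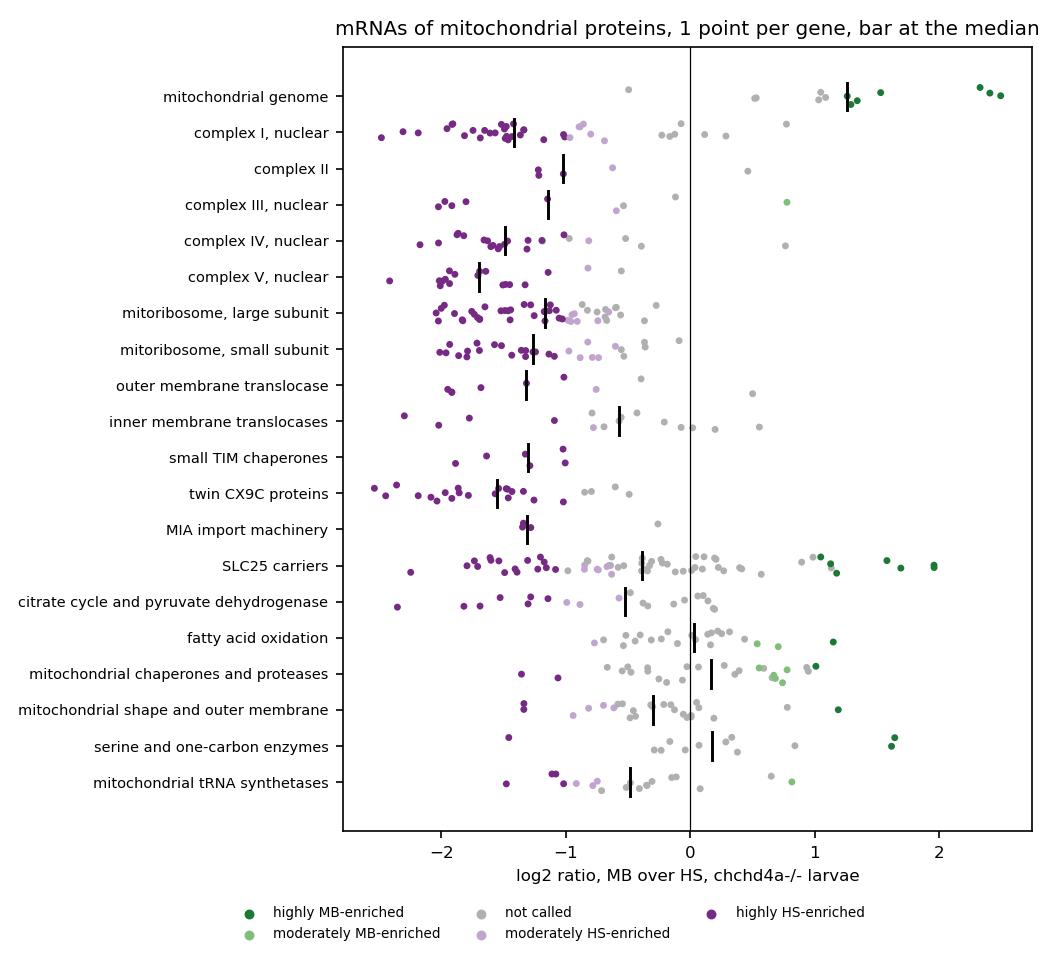
Log2 ratio of MB over HS for each gene of 20 mitochondrial lists in the mutant, colored by call, with a black bar at the list median. Import substrates and mitoribosomal proteins lie below 0, nuclear subunits mostly below it, the mitochondrial genome mostly above it, and carriers on both sides.

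Most substrates and components of the MIA pathway were HS-enriched. All 6 small TIM chaperones, which shield hydrophobic precursors in the intermembrane space, were highly HS-enriched (3 of them without HS replicate 3, 5 with the replicate block). *timm9* stood at 12.7, 13 and 13.7 CPM in MB and 44.7, 31.9 and 69.1 CPM in HS, a log2 ratio of -1.88 ± 0.28. The others had -1.64 ± 0.34 (*timm8a*), -1.32 ± 0.23 (*timm8b*), -1.29 ± 0.27 (*timm10*), -1.02 ± 0.20 (*timm10b*) and -1.0 ± 0.24 (*timm13*), the last with an adjusted p of up to 0.076 with any MB library left out. Of 24 twin CX9C proteins, 20 were highly HS-enriched and none was called in MB, with a median of -1.55 (-1.72 without HS replicate 2). *coa6*, an assembly factor of complex IV, stood at 16.5, 14.4 and 12.4 CPM in MB and 74.2, 72 and 105 CPM in HS, a log2 ratio of -2.54 ± 0.23 (adjusted p = 0.0011). *cox6b2*, the most counted, had -1.47 ± 0.22, the complex I member *ndufa8* -1.48 ± 0.27, and *chchd3b* at -0.49 ± 0.22 was the member nearest 0 and not called. The MB values of these mRNAs were close together, while their HS values spread, with replicate 3 the highest for 21 of the 24 and for 6 of the 6 small TIMs. In WT larvae the small TIM list had a median of -0.92 with 2 highly HS-enriched, and the twin CX9C list one of -1.20 with 12. No gene of either list passed edgeR's test of the difference between genotypes, with or without the replicate block.

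Of the 4 genes of the MIA machinery, *chchd4a* was described above and its paralog *chchd4b* had 2.72, 3.74 and 2.85 CPM in MB and 6.8, 6.62 and 10.2 CPM in HS, a log2 ratio of -1.34 ± 0.26. *gfer*, the sulfhydryl oxidase gene, stood at 20.9, 12.1 and 9.09 CPM in MB and 50.1, 18.4 and 33.5 CPM in HS. These groups overlapped, the log2 ratio was -1.28 ± 0.39 (adjusted p = 0.031), and p reached 0.13 with 1 library left out (HS replicate 1, MB replicate 2 or MB replicate 3). *aifm1*, whose product binds MIA40 in mammals, was not called, with -0.26 ± 0.19.

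Among the outer membrane translocase (TOM), 6 of 9 were highly HS-enriched. The small subunit *tomm7* had -1.95 ± 0.23, *tomm6* -1.68 ± 0.29 and the receptor *TOMM20* -1.91 ± 0.22, with 72.1, 57.5 and 60.8 CPM in MB and 215, 270.4 and 232 CPM in HS. The pore *tomm40* had -0.76 ± 0.18, with an adjusted p of up to 0.084 without MB replicate 1 or 2. The large receptor *tomm70a* was the only TOM gene above 0, at 26.1, 35.3 and 24.7 CPM in MB and 18.6, 23.5 and 18.7 CPM in HS. Its fractions did not overlap, and its log2 ratio of 0.50 ± 0.21 was not called (adjusted p = 0.085). The inner membrane translocases were mixed, with 4 of 15 highly HS-enriched, among them *dnajc19* (-2.30 ± 0.28) and *romo1* (-2.02 ± 0.23), and a highest ratio of 0.55 ± 0.27 for *timm17b*, not called.

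Metabolite carriers of the SLC25 family were found on both sides. Of 64 tested, 7 were highly MB-enriched and 16 highly HS-enriched, where 11.8% and 13.8% of all genes were. The share on the MB side was thus near that of all genes. The ADP/ATP carrier *slc25a5*, the most counted, stood at 3227, 2501 and 2409.6 CPM in MB and 7968, 11378 and 8852 CPM in HS, a log2 ratio of -1.79 ± 0.31, and *slc25a55b* had the lowest ratio, -2.24 ± 0.26. *slc25a1b*, the citrate carrier, stood at 14, 30.5 and 14.7 CPM in MB and 4.06, 8.46 and 2.74 CPM in HS, a log2 ratio of 1.96 ± 0.45, with an adjusted p of 0.052 without HS replicate 1. *slc25a6* had 3.91, 5.41 and 4.48 CPM in MB and 1.09, 1.21 and 1.26 CPM in HS, a log2 ratio of 1.96 ± 0.25, and was named after its values were seen, as were *ucp1* (-1.71 ± 0.35) and *slc25a4* (-1.61 ± 0.27). Leaving out HS replicate 1 gave 3 highly MB-enriched carriers. The other carrier-like family tested, the sideroflexins, had *sfxn3* at 1.4 ± 0.30 and *sfxn4* at -1.30 ± 0.24. *sfxn1*, a serine carrier in human cells, had 0.71 ± 0.31, not called, with an adjusted p of 0.096 that was 0.012 with the replicate block.

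Matrix enzymes and chaperones lay closer to 0. Of 20 citrate cycle and pyruvate dehydrogenase mRNAs, 7 were highly HS-enriched, led by *idh2* with 441, 326 and 420.2 CPM in MB and 1619, 2348 and 2094 CPM in HS, a log2 ratio of -2.35 ± 0.28. *mdh2* had -1.82 ± 0.27, while *OGDH* (0.20 ± 0.18) overlapped. Fatty acid oxidation had 1 of 22 highly MB-enriched, *acad9* at 1.15 ± 0.22, and a list median of 0.03, with *etfb* lowest at -0.77 ± 0.21 (adjusted p up to 0.11 without HS replicate 1 or any MB library). Chaperones and proteases had 1 of 26 highly MB-enriched (0 without HS replicate 1, 3 without MB replicate 3) and 5 moderately so. The processing peptidase subunit *pmpca* had 1.01 ± 0.27 (adjusted p up to 0.062 without HS replicate 1 or MB replicate 2), and *hspa9*, the import motor Hsp70, 0.67 ± 0.20 (up to 0.082 without HS replicate 1 or any MB library). *parla*, a rhomboid protease, had -1.36 ± 0.26. The outer membrane GTPase *rhot2* had 1.19 ± 0.23, whereas the porins *vdac2* and *vdac3* had -1.34 ± 0.29 and -1.34 ± 0.26.

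Of 12 serine and one-carbon enzymes 2 were highly MB-enriched (none without HS replicate 1) and 1 highly HS-enriched, where 11.8% and 13.8% of all genes were. The share on the MB side was thus near that of all genes. Highest was *shmt2*, the mitochondrial serine hydroxymethyltransferase, with 20.9, 36.1 and 24.1 CPM in MB and 8.81, 13.8 and 3.45 CPM in HS, a log2 ratio of 1.64 ± 0.43. Its fractions did not overlap, but the adjusted p of 0.018 reached 0.068 without HS replicate 1 or MB replicate 2. *psph*, the last enzyme of serine synthesis, had -1.46 ± 0.19 and *aldh1l1* -0.04 ± 0.21. Of 19 genes of the mitochondrial tRNA synthetase list 4 were highly HS-enriched (1 without MB replicate 2). Lowest was *gatc* at -1.48 ± 0.28, a tRNA amidotransferase subunit gene and no synthetase gene. In this list *hars* was the most counted at -0.91 ± 0.20 (adjusted p up to 0.054 without MB replicate 1 or 2) and *fars2* highest at 0.82 ± 0.26 (up to 0.096 without any 1 library but HS replicate 2). Of 20 cytosolic synthetases 1 was highly HS-enriched, *gars1* at -1.15 ± 0.21, while *kars1*, the most counted, had -0.81 ± 0.21 (up to 0.082 without any MB library).

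The 13 mRNAs of the mitochondrial genome, which are made inside the organelle, had ratios from 2.49 to -0.50, and 7 of them passed the test on the MB side. They took 9.46, 5.01 and 6.03% of gene counts in MB and 1.19, 1.87 and 1.23% in HS. The means were 6.84% ± 2.33 in MB and 1.43% ± 0.38 in HS (SD, n = 3 each), a difference of 5.40 percentage points with an exact two-sided permutation p of 0.1, the smallest possible. In WT larvae the means were 14.5% ± 3.0 in MB and 1.62% ± 0.13 in HS. All 7 were highly MB-enriched, and the list median was 1.26 (1.53 without HS replicate 2). The count was 3 without HS replicate 1, and the median between the libraries numbered 2 was 0.04, against 2.21 and 1.17 for numbers 1 and 3.

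*mt-nd5* stood at 3624, 1779 and 2491 CPM in MB and 401, 630.3 and 372 CPM in HS, a log2 ratio of 2.49 ± 0.36. *mt-nd4l* had 2.41 ± 0.33, and *mt-co1*, the most counted gene of the genome, stood at 28853, 12123 and 14703 CPM in MB and 3550.3, 5214 and 2337 CPM in HS, a log2 ratio of 2.33 ± 0.46. These 3 kept the call with each library left out. The other 4 called were *mt-atp8* (1.53 ± 0.46), *mt-cyb* (1.34 ± 0.38), *mt-nd4* (1.29 ± 0.36) and *mt-nd2* (1.26 ± 0.42), each of which lost the call without HS replicate 1, with adjusted p of 0.094 to 0.15 there. *mt-atp8* also lost it without MB replicate 1, and *mt-nd2* without any 1 library but HS replicate 2 or MB replicate 2. Not called were *mt-co3* (1.09 ± 0.39), *mt-co2* (1.05 ± 0.39), *mt-nd1* (1.03 ± 0.39), *mt-atp6* (0.53 ± 0.41), *mt-nd6* (0.52 ± 0.32) and *mt-nd3*. *mt-nd3* had 433, 182 and 267 CPM in MB and 240.0, 523 and 480.2 CPM in HS, a log2 ratio of -0.50 ± 0.38. MB replicate 1 was the highest MB library and HS replicate 2 the highest HS library for all 13.

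In WT larvae all 13 were highly MB-enriched, with log2 ratios of 1.72 to 3.50 and a median of 2.67. The difference between genotypes, tested as an interaction in the 12 libraries, was not called for any of the 13 by edgeR. The difference furthest from 0 was that of *mt-nd3*, -2.15 ± 0.52 (adjusted p = 0.18, or 0.059 when blocked), followed by *mt-atp6* with -2.10 ± 0.52.

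**Figure D5:**
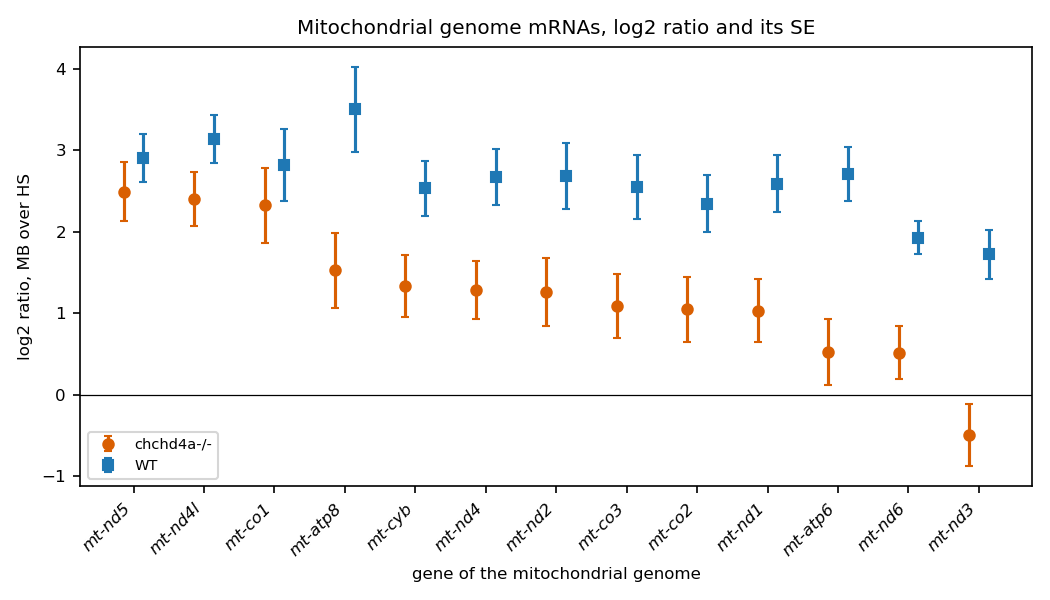
Log2 ratio of MB over HS for the 13 mRNAs of the mitochondrial genome, with SE as bars, in mutant (circles, left) and WT (squares, right) larvae. Mutant values run from 2.49 down to -0.50 and WT values lie between 1.72 and 3.50; no difference between genotypes passed the test.

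Tissue mRNAs of the cytosol were mostly HS-enriched, with one group of muscle genes against the trend. Of 24 keratins 19 were highly HS-enriched (median -1.63), and *krt4*, the most counted, stood at 1884, 1755 and 2185 CPM in MB and 6391, 14589 and 12452 CPM in HS, a log2 ratio of -2.52 ± 0.38. Of 52 lens crystallins 42 were highly HS-enriched (27 without MB replicate 2), with a median of -1.71 (-2.04 without HS replicate 2), although *crybb1*, the most counted, overlapped with -0.52 ± 0.36. Of 7 hemoglobins 4 were highly HS-enriched, only 1 of them without HS replicate 1. *zgc:163057* had -2.02 ± 0.30. The most counted, *hbae3*, had -1.11 ± 0.39, with an adjusted p of 0.0503, above the threshold, that was 0.012 with the replicate block. In the level of such a gene in a bulk library, fewer cells of a tissue and less RNA per cell cannot be told apart.

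Sarcomere genes gave 38 highly HS-enriched and 8 highly MB-enriched mRNAs of 69. The most counted, *actc1b* (cardiac-type actin of larval muscle), stood at 6225, 4731 and 5803 CPM in MB and 26557, 46107 and 11550.4 CPM in HS, a log2 ratio of -2.33 ± 0.50. The 8 on the MB side were all myosin heavy chain genes, a split noticed after the values were seen. Of the 13 myosin heavy chain rows in the list 8 were highly MB-enriched (median 1.49), and of the other 56 sarcomere rows none was, with 37 highly HS-enriched (median -1.48). *myhz2*, a fast muscle myosin, stood at 3903, 1403 and 1682 CPM in MB and 746, 417 and 677 CPM in HS, a log2 ratio of 1.93 ± 0.43. Slow muscle *smyhc1*, named after its values were seen, had 847, 388 and 329 CPM in MB and 218, 184 and 157 CPM in HS, a log2 ratio of 1.49 ± 0.37. MB replicate 1 was the highest MB library for 11 of the 13. The fast myosin genes are near copies of each other, so how the reads were divided among them is uncertain. In WT larvae the same 13 rows had a median of 1.41 with 8 highly MB-enriched.

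Of 33 glycolysis genes 3 were highly MB-enriched and 10 highly HS-enriched, where 11.8% and 13.8% of all genes were. *gapdh* stood at 983, 726 and 809 CPM in MB and 3674, 6980.1 and 3936 CPM in HS, a log2 ratio of -2.53 ± 0.35. At the other end ENSDARG00000099755, a row under the phosphofructokinase symbol *PFKL*, stood at 19, 20.7 and 15.1 CPM in MB and 5.74, 7.29 and 2.21 CPM in HS, a log2 ratio of 1.85 ± 0.38. Hexokinase *hk1*, which in mammals docks on the mitochondrial outer membrane, had 1.09 ± 0.21 and was named after its values were seen.

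mRNAs of secreted proteins mostly had ratios above 0, apart from the digestive enzymes. The secretory lists also take in ER and lysosomal proteins, the signal recognition particle, and genes of sphingolipid metabolism and cholesterol synthesis. Over their 356 tested genes, 276 ratios were above 0. Of these 356 genes 99 were highly MB-enriched and 16 highly HS-enriched, and 190 were not called. The count on the MB side was 60 without HS replicate 1 and 144 without HS replicate 2. That on the HS side was 4 without MB replicate 2. Of 43 liver plasma protein genes 26 were highly MB-enriched (median 1.23), where 11.8% of all genes were. The complement gene *c3a.2* stood at 11.3, 8.45 and 18.7 CPM in MB and 2.13, 1.55 and 2.34 CPM in HS, a log2 ratio of 2.68 ± 0.34. The fibrinogen genes *fga*, *fgb* and *fgg*, named after their values were seen, had 1.64 ± 0.30, 1.63 ± 0.33 and 1.61 ± 0.31. The most counted, *fetub*, overlapped, at 887 to 1324 CPM in MB and 476 to 2666 CPM in HS. The 1 highly HS-enriched row, *rbp2b* at -1.35 ± 0.37, encodes a cellular retinol-binding protein of the cytosol that the list's name search took in, and its adjusted p reached 0.089 without HS replicate 1 or any MB library.

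Apolipoproteins gave 5 of 17 highly MB-enriched and 2 highly HS-enriched (1 on the HS side without HS replicate 1). *apobb.1*, whose large product is the scaffold of lipoprotein particles and which was named after its values were seen, stood at 2872, 3431 and 2204 CPM in MB and 718, 966 and 597 CPM in HS, a log2 ratio of 1.90 ± 0.31, and *apobb.2* had 2.62 ± 0.45. The small *apoea*, also secreted, stood at 606, 651 and 516 CPM in MB and 1226, 2014 and 1323 CPM in HS, a log2 ratio of -1.36 ± 0.28. The most counted, *apoa1b*, overlapped, with 0.18 ± 0.44.

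Collagens had 17 of 55 highly MB-enriched and none on the HS side (8 without HS replicate 1, 28 without HS replicate 2), and 54 of 55 ratios were above 0, with a median of 0.77 (1.01 without HS replicate 2). *col1a1a* stood at 2592, 2357 and 2978 CPM in MB and 984, 1591 and 798 CPM in HS, a log2 ratio of 1.23 ± 0.32, with an adjusted p of 0.076 without HS replicate 1. The basement membrane collagen *col4a5* had 1.48 ± 0.29. Of 14 laminins 6 were highly MB-enriched (3 without HS replicate 1, 11 without MB replicate 3), led by *lama1* at 2.03 ± 0.45. Of 27 integrins 7 were (3 without HS replicate 1, 14 without HS replicate 2), and *itgb7* had 1.51 ± 0.36.

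The exocrine pancreas enzymes did not follow the other secreted proteins. Of 31 tested, 1 was highly MB-enriched and 5 were highly HS-enriched, where 11.8% and 13.8% of all genes were. The share on the HS side was thus near that of all genes. The median was -0.05, and 25 of the 31 were not called. *prss59.2*, a trypsin gene and the most counted, stood at 790.3, 463 and 760.1 CPM in MB and 1796, 1878 and 1218 CPM in HS, a log2 ratio of -1.28 ± 0.31. *cela1.6*, an elastase gene, had -1.50 ± 0.40. Both lost the call without HS replicate 1 or MB replicate 2, with adjusted p of up to 0.053 and 0.073, and no enzyme was highly HS-enriched without MB replicate 2. *cpa4*, a carboxypeptidase gene, had 1.05 ± 0.29 (adjusted p up to 0.064 without MB replicate 1 or 3). In WT larvae the list had a median of 1.17 with 15 highly MB-enriched and none highly HS-enriched. No enzyme of the list passed edgeR's test of the difference between genotypes, with or without the replicate block. The summed level of 4 pancreatic markers was 1294 to 2281 CPM in mutant MB and 2132 to 3286 CPM in mutant HS.

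Of 35 ER chaperones and disulfide isomerases 6 were highly MB-enriched and none highly HS-enriched (2 on the MB side without HS replicate 1). The share on the MB side was not far from the 11.8% of all genes. *hspa5*, the ER Hsp70 BiP, stood at 187, 137 and 256 CPM in MB and 66.1, 85.5 and 63.4 CPM in HS, a log2 ratio of 1.43 ± 0.27. The ER markers *calr* (-0.26 ± 0.36) and *p4hb* (-0.09 ± 0.23) overlapped between fractions, and *ppib*, a luminal prolyl isomerase and the most counted, had -0.90 ± 0.28, with an adjusted p of up to 0.14 without HS replicate 1 or MB replicate 1 or 2. Of 28 translocon and modifying enzyme genes 2 were highly MB-enriched (1 without HS replicate 3, 4 without HS replicate 2) and 2 highly HS-enriched. Both shares were below those of all genes, 11.8% and 13.8%. On the HS side were the small tail-anchored subunits, *sec61g* at -2.02 ± 0.24 and *sec61b* at -1.54 ± 0.21, with 87.0, 66.8 and 74.8 CPM in MB and 217, 239 and 207 CPM in HS. The multi-spanning channel subunit *sec61a1* was not called, with 305, 247 and 278 CPM in MB and 386, 547 and 368 CPM in HS (-0.65 ± 0.25, adjusted p = 0.063), and its paralog *sec61a1l* had 1.13 ± 0.20. The ER membrane protein *lrrc59* had -1.88 ± 0.26. Of the signal recognition particle, whose proteins are cytosolic, *srp14* and *srp9* were highly HS-enriched (-1.22 ± 0.18 and -1.20 ± 0.35) and *srp54* moderately MB-enriched (0.72 ± 0.25). *srp9* lost the call without HS replicate 1 or any MB library (adjusted p up to 0.11), and *srp54* without HS replicate 3 or any MB library (up to 0.12). *srp19* (-0.79 ± 0.28), *srp68* (-0.37 ± 0.20) and *srp72* (-0.01 ± 0.29) were not called, *srp19* with an adjusted p of 0.051 that was 0.022 with the replicate block.

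Over the 791 tested genes of the membrane protein lists, 272 were highly MB-enriched and 20 highly HS-enriched, where 11.8% and 13.8% of all genes were, with a median of 0.78 (0.99 without HS replicate 2). The count on the MB side was 170 without HS replicate 1 and 366 without HS replicate 2, and that on the HS side 8 without MB replicate 2. In WT larvae these genes had a median of 0.78, with 227 highly MB-enriched and 13 highly HS-enriched. edgeR called the difference between genotypes for none of them. With the replicate block it called 17 further to MB and 1 further to HS in the mutant, against 2.95% and 0.448% of all genes.

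Of 369 solute carriers outside SLC25, 132 were highly MB-enriched and 9 highly HS-enriched (84 on the MB side without HS replicate 1, 4 on the HS side without MB replicate 2). Against the trend, *slc38a5b*, an amino acid transporter gene, stood at 274, 186 and 192 CPM in MB and 626, 899 and 741 CPM in HS, a log2 ratio of -1.80 ± 0.27. The monocarboxylate transporter *slc16a1a* had 1.14 ± 0.24. Of 51 ABC transporters 1 was highly HS-enriched and 21 highly MB-enriched, with *abcg2d* highest at 2.81 ± 0.42 and the most counted, *abcc2*, at 311, 201 and 333 CPM in MB and 86.4, 90.3 and 72.2 CPM in HS (1.76 ± 0.26). Of 84 cytochrome P450 genes 4 were highly HS-enriched (1 without MB replicate 1) and 30 highly MB-enriched (17 without HS replicate 1). Highest was *cyp8b1*, the sterol 12-alpha-hydroxylase of bile acid synthesis, at 2.18 ± 0.35, while *cyp3a65*, the most counted, overlapped with -0.02 ± 0.34.

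Of 106 potassium channels 2 were highly HS-enriched (0 without MB replicate 2) and 32 highly MB-enriched (13 without HS replicate 1), with *kcnc4* highest at 2.43 ± 0.48 and *kcnk4a*, the most counted, at -0.06 ± 0.25. Protocadherins, adhesion molecules of neurons, gave 26 of 53, and *pcdh2g28*, the most counted, stood at 105, 107 and 104 CPM in MB and 35.8, 56.2 and 24.4 CPM in HS, a log2 ratio of 1.44 ± 0.29. Of 33 adhesion GPCRs 5 were (2 without HS replicate 1, 12 without HS replicate 2, 9 with the replicate block), a share near the 11.8% of all genes. Highest was *adgrg4a* at 2.10 ± 0.26. Of 35 claudins 8 were highly MB-enriched and 3 highly HS-enriched, the lowest being *cldn8.1* at -2.05 ± 0.40 (4 on the MB side without HS replicate 1). Of 21 sodium pump and calcium pump genes 5 were highly MB-enriched (9 without HS replicate 2), led by *atp1b4* at 1.32 ± 0.27, while *atp2a1*, the calcium pump of fast muscle and the most counted, overlapped with 0.33 ± 0.37. The 1 highly HS-enriched member, *atp2a2a* (-1.03 ± 0.36), also overlapped, with an adjusted p of up to 0.15 without any 1 library but HS replicate 3.

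The V-ATPase is the proton pump of lysosomes. Of 12 subunits of its membrane sector 6 were highly MB-enriched, led by ENSDARG00000015174, a row under *ATP6V0A1*, with 18.8, 22.8 and 18.8 CPM in MB and 4.06, 6.57 and 3.54 CPM in HS, a log2 ratio of 2.09 ± 0.27. Of 13 subunits of the soluble sector 1 was highly MB-enriched and 1 highly HS-enriched (0 on the MB side without HS replicate 2 and 2 without HS replicate 3, 0 on the HS side without HS replicate 1 and 2 without HS replicate 2), with a median of 0.07 that was -0.18 without HS replicate 2. *atp6v1g1*, its most counted, had -1.22 ± 0.32 (adjusted p up to 0.082 without HS replicate 1 or any MB library). Lysosomal enzymes and membrane proteins had 2 of 63 highly HS-enriched (0 without MB replicate 2) and 17 highly MB-enriched (10 without HS replicate 1, 32 without HS replicate 2), led by the sphingomyelinase *smpd1* at 1.82 ± 0.29. The most counted, the protease *ctsla*, stood at 964, 767 and 646 CPM in MB and 305, 370.1 and 220.4 CPM in HS (1.41 ± 0.28). Sphingolipid metabolism gave 13 of 42 (8 without HS replicate 1), and *sgpl1*, the ER lyase that ends sphingolipid breakdown, had 1.55 ± 0.22, while *sptssa*, a small activating subunit of the first enzyme of synthesis, had -1.11 ± 0.19. Of 22 cholesterol synthesis genes 6 were highly MB-enriched (3 without HS replicate 1) and 1 highly HS-enriched (0 without HS replicate 1).

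In the phototransduction list 6 of 38 were highly MB-enriched and 5 highly HS-enriched (3 on the HS side without MB replicate 3). These shares are near those of all genes, 11.8% and 13.8%. Those on the HS side included the small cone transducin gamma subunit, ENSDARG00000103543 under *GNGT2*, at 139, 179 and 139 CPM in MB and 652, 506 and 852 CPM in HS (-2.14 ± 0.27). *rho*, the rod opsin and the most counted, overlapped between fractions, at 1105 to 1487 CPM in MB and 526 to 1744 CPM in HS.

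Of 20 genes of the integrated stress response, which mitochondrial dysfunction can switch on, 3 were highly HS-enriched and 2 moderately MB-enriched, a share on the HS side near that of all genes (13.8%). *chac1*, a glutathione-degrading enzyme gene and the most counted, stood at 173, 212 and 105 CPM in MB and 586, 1047 and 432 CPM in HS, a log2 ratio of -2.07 ± 0.39. The transcription factor genes *atf4a* and *ddit3*, named after their values were seen, had -1.73 ± 0.23 and -1.10 ± 0.21. *asns*, asparagine synthetase, went the other way, with 23.2, 27.4 and 27.0 CPM in MB and 15.0, 13.4 and 12.7 CPM in HS, a log2 ratio of 0.92 ± 0.18. Of 48 Hox genes 10 were highly HS-enriched (6 without MB replicate 1), with *hoxb1b* at -1.77 ± 0.20. The muscle regulator *myod1* had -1.15 ± 0.19. Of 15 core histone and variant genes 1 was highly HS-enriched, *h2az2a* at -1.62 ± 0.37 (adjusted p = 0.053 without MB replicate 2, 2 histone genes with the replicate block), and 4 were without HS replicate 2.

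Whether a gene lay further to one fraction in the mutant than in WT was tested as an interaction over 23452 genes. edgeR called 0 genes further to MB and 0 further to HS (0% each, smallest adjusted p = 0.056), with 1964 and 1410 at an unadjusted p under 0.05. DESeq2 called 563 and 233. When blocked on the replicate number, edgeR called 691 further to MB (2.95%) and 105 further to HS (0.448%) in the mutant. Of the 691, 192 were MB-enriched and 30 HS-enriched in the mutant at an adjusted p of at most 0.05. Of all genes 17% and 20% were. In WT 3 of the 691 were MB-enriched and 411 HS-enriched, where 12.4% and 13.3% of all genes were. Their median log2 ratio was 0.31 in the mutant and -1.77 in WT. Of the 105, 54 were HS-enriched in the mutant and 41 MB-enriched in WT, with medians of -0.89 in the mutant and 0.81 in WT. Both sets were chosen by the difference between genotypes. The order of their mutant and WT medians is therefore set by the choice and is no further result. WT HS replicate 1 held a spike-in share of 30.03%, against 9.82 to 14.2% in the other WT HS libraries. Without both WT libraries of that number, an alternative chosen after seeing the data, the blocked fit called 240 and 28, of which 231 and 24 were among the 691 and the 105. Leaving out 1 of the 12 libraries at a time in the unblocked fit called 0 to 12 genes further to MB and 0 to 2 further to HS, the most without WT HS replicate 1. The genes of the nuclear-encoded mitochondrial lists gave 4 of the 691 and 0 of the 105, and the mitochondrial genome none of either.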

How the data were processed

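Poly(A) RNA of MB and HS fractions was sequenced from WT and *chchd4a*-/- larvae, 3 libraries of each. Per the study's methods and the submitters' processing notes, the authors quantified transcripts with Salmon 1.4.0 on the danRer11 build with an Ensembl annotation and summed them to genes. The deposited values are expected counts, of which 30.6% in the mutant table were not whole, and they were rounded here. The authors' tables list 31778 genes beside 92 spike-in RNAs. Gene symbols were taken from the study's gene tables (6469 genes) and the reference gene tables (22682), and 2627 genes had none.

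Genes with more than 50 counts over the 6 mutant libraries were tested with edgeR 4.0.16 (TMM, quasi-likelihood F test, prior count 0.125, Benjamini-Hochberg adjustment) in R 4.3.3, and SE was the log2 ratio divided by the root of F. CPM values use TMM library sizes. The thresholds on the ratio and on adjusted p were those of the study. The difference between genotypes was the interaction in one fit of all 12 libraries. Shares were compared by exact two-sided permutation with scipy 1.17.1. DESeq2 1.42.0, other scalings and filters, a replicate block, glmTreat (limma 3.58.1 as its base) and each library left out were tried. The code was tested on simulated data.

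Same-numbered MB and HS libraries deviated together from their group means, over genes with a mean of at least 1 CPM, with correlations of 0.323, 0.306 and 0.555 in the mutant and 0.610, 0.586 and 0.501 in WT, all over 0.1, so the numbers were taken to pair the libraries. Some unlike numbers were over 0.1 too: mutant MB 2 with HS 1 (0.158), WT MB 2 with HS 3 (0.536) and WT MB 3 with HS 2 (0.376). This limit therefore does not establish the pairing, and results of the replicate block rest on it as an assumption. Nothing in the labels says whether the libraries of a fraction came from separate pools of larvae, so p-values measure only the spread between these libraries, which may be technical.

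Named genes were *chchd4a*, the 10 largest ratios on each side with a symbol, more than 1000 counts and fractions that do not overlap, the highest, lowest and most counted member of each list, all members of lists of up to 8 genes, genes for which the study had primers (2 not matched), the mitochondrial genome, *shmt2*, *sfxn1*, *sfxn3*, *sfxn4*, *myod1*, and 5 genes on each side of the interaction; any other is said to be named after its values were seen. Some genes that the rule names are not reported here. The comparison, the 57 gene lists and the rule were chosen with earlier results of these data known. Deposited columns of fold changes or p-values were not used.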

Additional observations from a re-analysis of the deposited data

Results flagged for a closer look

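With the replicate number as a block, the MB over HS log2 ratio differed between mutant and WT larvae, and the 5 largest differences with a symbol and more than 1000 counts are given for each side; the unblocked fit called none of them. The mutant ratio lay above the WT ratio by 3.6 for *si:dkey-175m17.7*, 3.56 for *fam168a*, 3.46 for *map7a*, 3.31 for *ap3b2* and 3.28 for *tep1*. It lay below the WT ratio, with a difference of -6.57 for *htra2-5*, -2.74 for *si:ch73-14h10.4*, -2.47 for *znf1179*, -2.40 for *CR848040.3* and -2.18 for *zgc:92590*. The value of *htra2-5* is no bound, because it rests on 0.034, 0 and 0 CPM in mutant MB and 2.79, 0.015 and 3.15 CPM in mutant HS, and on 0.638, 0.831 and 1.31 CPM in WT MB and 0, 4.38 and 4.24 CPM in WT HS. Adjusted p in the unblocked edgeR fit was 0.18 to 0.38 for these 10 genes. WT HS replicate 1, whose spike-in share was 30.03%, was the highest WT HS library for the first 5, and without both WT libraries of that number the blocked fit gave an adjusted p of 0.0189 to 0.0498 for the 10 genes.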

How the results depend on the processing

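Highly enriched genes numbered 9731 (MB) and 864 (HS) with library totals, 18108 and 35 with spike-in totals, and 1817 on the MB side with glmTreat. Moderately enriched genes numbered 2793 and 498 with library totals, 0 and 0 with spike-in totals, and 2432 and 2504 with the replicate block. Leaving out 1 mutant library gave 1466 to 4255 highly MB-enriched, 2217 to 3665 highly HS-enriched, 255 to 1585 moderately MB-enriched and 221 to 2270 moderately HS-enriched genes. Genes further to MB in the mutant than in WT numbered 691 with the replicate block, 240 with the block without WT replicate 1, 563 by DESeq2, 335 under library totals, and 0 to 12 with 1 library left out. Those further to HS numbered 105 with the block, 28 with the block without WT replicate 1, 233 by DESeq2, 5 under library totals, 4 under spike-in totals and 0 to 2 with 1 library left out. The cause of these shifts was not tested. Beside the genes given with it above, the replicate block called *krt18a.2* (adjusted p = 0.035), *hbae1.2* (0.024), *hbae1.3* (0.00087), *mrpl17* (0.026) and *adgrf7* (0.011). The block also changed whether *CR848040.3* passed the test, and that of no other gene that the rule names. Genes whose class alone changed with the block include *timm13*, *atp2a2a* and ENSDARG00000055712, a row under *SDHD*, from highly to moderately HS-enriched. *mcur1* changed from moderately to highly HS-enriched. In the unblocked fit *mcur1* lost the call without HS replicate 1 or any MB library (adjusted p up to 0.10). Protein feature alternatives were not run, because no protein sequences were at hand. Where a protein is called small, large or multi-spanning above, that is background, and a relation of size or topology to the ratios was not tested. The depth was 45621399 to 90799590 gene counts per mutant library, and 3 libraries per fraction, not depth, bound the exact tests, whose smallest p is 0.1.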
